A study of Mus musculus with 4 samples.

Results

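This account describes 10 genes of the bone morphogenetic protein (BMP) pathway: the ligand genes Bmp2, Bmp4, Bmp5 and Bmp7, and the BMP-responsive genes Id1, Id2, Id3, Msx1, Msx2 and Bambi. They were taken by gene symbol from 26994 genes or unnamed transcripts in the RNA-seq tables, and each of the 10 has 1 transcript row. The series concerns the Evx1 locus in differentiating mouse embryonic stem cells. Its 4 libraries used here came from CJ9 cells, an embryonic stem cell line of strain 129S4/SvJae, labelled wild type and titled as Cas9 only. All 4 were grown without leukemia inhibitory factor (LIF), the cytokine that holds mouse embryonic stem cells undifferentiated. The titles place 2 libraries at day 6 and 2 at day 4 after LIF was withdrawn. The growth protocol text gives other days for 3 of the 4, and no label states separate cultures for the replicates of a day, so a p-value measures only the spread between these libraries. Cells with a deletion at the locus were not analysed here.

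BMPs are secreted dimers that bind type I and type II serine/threonine kinase receptors. The receptors phosphorylate SMAD1, SMAD5 and SMAD9, which join SMAD4 and act on genes such as the Id genes. In the mouse embryo Bmp4 from the extraembryonic ectoderm is needed for mesoderm and germ cells to form. In mouse embryonic stem cells, BMP acting through Id proteins works with LIF to keep cells undifferentiated.

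Transcription start windows are shown for 3 members, to place SMAD-binding letters next to the start: the most abundant ligand (Bmp4), the Id gene whose days do not overlap (Id2) and the member with the widest spread (Id3). They are 300 bases each, 250 before and 50 after the start, from RefSeq on GRCm38.p6, the assembly that mm10 stands for. Capitals mark GGCGCC, the GC-rich letters that BMP SMADs bind, and CAGAC or its reverse complement GTCTG, which SMAD4 binds. Both strands were searched, and the motifs do not overlap in these windows.
Bmp4, chr14:46390620-46390919, minus strand: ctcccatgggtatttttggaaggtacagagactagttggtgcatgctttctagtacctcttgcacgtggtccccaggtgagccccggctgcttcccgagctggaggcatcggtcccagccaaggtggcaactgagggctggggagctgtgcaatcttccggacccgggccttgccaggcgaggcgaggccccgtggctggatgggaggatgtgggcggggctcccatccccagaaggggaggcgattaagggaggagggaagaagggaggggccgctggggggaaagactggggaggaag
Id2, chr12:25096043-25096342, minus strand: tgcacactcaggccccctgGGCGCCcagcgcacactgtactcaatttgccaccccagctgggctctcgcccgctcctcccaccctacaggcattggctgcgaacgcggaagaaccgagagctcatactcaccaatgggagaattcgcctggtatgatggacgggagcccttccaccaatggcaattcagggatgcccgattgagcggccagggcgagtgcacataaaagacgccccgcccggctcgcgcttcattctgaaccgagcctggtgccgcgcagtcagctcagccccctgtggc
Id3, chr4:136143572-136143871, plus strand: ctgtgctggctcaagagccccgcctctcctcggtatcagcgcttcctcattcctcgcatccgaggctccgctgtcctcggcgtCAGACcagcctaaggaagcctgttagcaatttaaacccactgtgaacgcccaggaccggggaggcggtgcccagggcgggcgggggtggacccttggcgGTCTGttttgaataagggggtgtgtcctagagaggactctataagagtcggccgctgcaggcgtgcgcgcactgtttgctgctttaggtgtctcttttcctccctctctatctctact
The Id2 window holds 1 GGCGCC, which begins at position -231 from the start, and the Id3 window holds 2 matches, which begin at positions -167 and -68. The Bmp4 window holds none of these letters. The deposited Bmp4 row begins at position 46390599, downstream of that window. A window was used for 6 of the 10 members, and among them 1 holds GGCGCC and 2 hold CAGAC or GTCTG. Of all 32851 windows, 11.9% hold GGCGCC and 49.6% hold CAGAC or GTCTG. No member window holds GGCGCC and, within 10 bases after it, GTCT, which 0.7% of all windows do. The matches describe letters near the start, not binding.

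Levels are the deposited FPKM, the fragments assigned to a transcript divided by its length in kilobases and by every 1000000 fragments mapped. Differences were tested as day 6 minus day 4 on log2(FPKM + 1), which understates the change of low genes, with limma over the 11716 genes that averaged at least 1 FPKM. All 10 members passed that filter. Bmp5 passed it through its day 6 values, so its difference is partly fixed by the filter. The interval widths in the tables correspond to about 6500000 and 5770000 fragments at day 6, against 3780000 and 3660000 at day 4. The median of all genes tested was 0.51 higher at day 6. In a bulk sample, fewer cells of a type and less RNA per cell cannot be told apart.

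The 4 ligand genes had both day 6 values above both day 4 values, as did 41.6% of all genes tested. Bmp4 was the most abundant ligand in all 4 libraries. Bmp4, an inducer of mesoderm, lies at chr14:46383520-46390599 of mm10, the build of all member coordinates here. It had 58.1 and 55.7 FPKM in day 6 replicates 1 and 2, against 11.3 and 19.3 FPKM in day 4 replicates 1 and 2. The day 6 values differ by 1.04-fold, and the days do not overlap. Its mean was 3.72-fold higher at day 6, and its log2 difference was 1.87 with a standard error of 0.49 (limma, adjusted p = 0.270, unadjusted p = 0.0153).

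Bmp5 (chr9:75775365-75899017), a ligand close in sequence to Bmp7, had 3.31 and 4.76 FPKM at day 6. At day 4 it had 0.247 FPKM in replicate 1, with a deposited interval that reaches 0, and was listed at 0 in replicate 2. It was thus near the detection limit at day 4 and low but present at day 6. Its log2 difference was 2.16 with a standard error of 0.39 (limma, adjusted p = 0.267, unadjusted p = 0.00414).

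Bmp2 (chr2:133552159-133562896), which signals through the same receptors as Bmp4, had 8.00 and 11.04 FPKM at day 6, against 3.27 and 6.97 FPKM at day 4. The gap between its days is small beside the spread at day 4. The log2 difference was 0.84 ± 0.53 (SE; limma, adjusted p = 0.481). Bmp7 (chr2:172868012-172940321), known for its part in kidney and eye development, had 3.58 and 3.50 FPKM at day 6, against 2.62 and 0.901 FPKM at day 4. Its day 6 values lie close together, and its 2 day 4 values differ by 2.90-fold, with replicate 1 the higher. The log2 difference was 0.79 ± 0.49 (SE; limma, adjusted p = 0.475).

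Summed over the 4 ligands, the level was 73.0 and 75.0 FPKM at day 6, against 17.4 and 27.2 FPKM at day 4. Bmp4 held 79.6 and 74.3% of that sum at day 6, against 64.8 and 71.1% at day 4. Bmp2 held 10.96 and 14.7% at day 6, against 18.8 and 25.6% at day 4. These shares do not depend on the scaling of a library, and in both the days do not overlap.

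**Figure D1:**
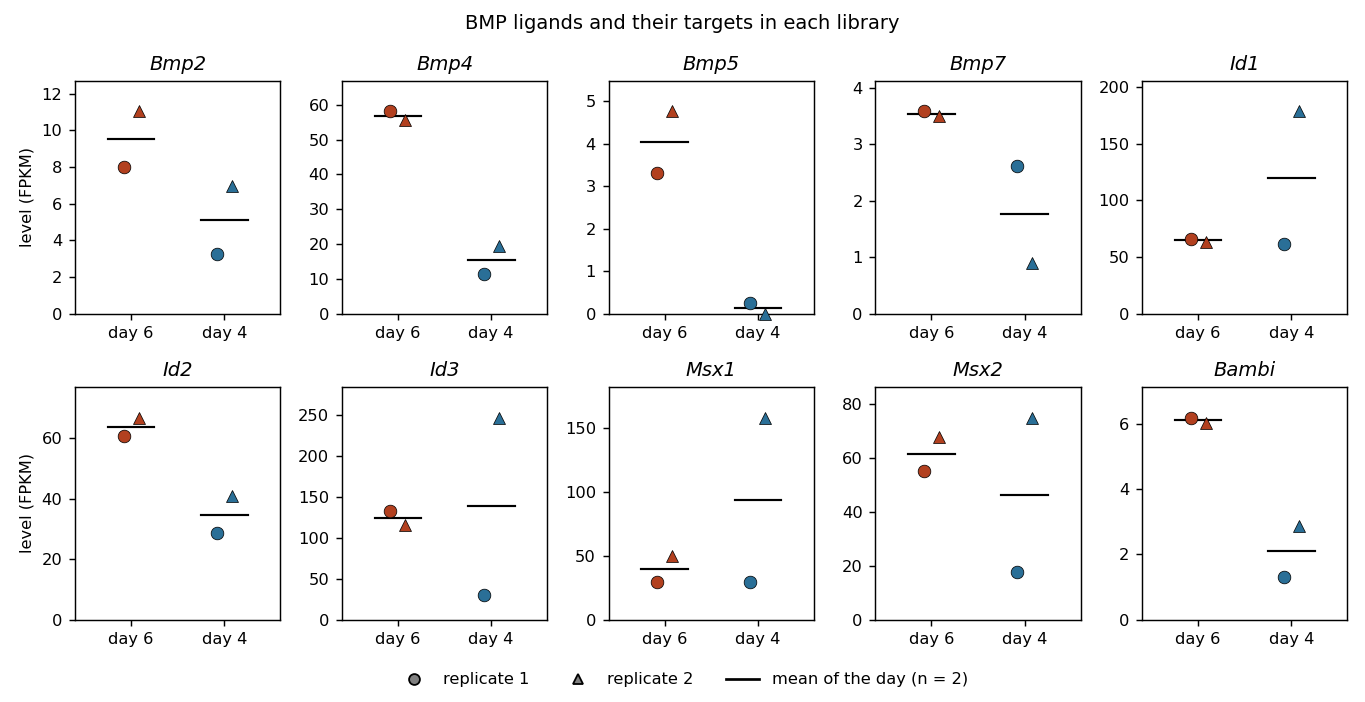
FPKM (linear axes from 0) of each member in the 4 libraries, with day 6 on the left and day 4 on the right of each panel; circles are replicate 1, triangles replicate 2 and bars the mean of the day (n = 2). The 4 ligands, Id2 and Bambi have both day 6 values above both day 4 values, and Id1, Id3, Msx1 and Msx2 overlap, with day 4 replicate 2 the highest library for each of these 4.

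The Id genes encode helix-loop-helix proteins that lack a DNA-binding region and hold E proteins away from DNA. Of the 3 Id members, Id2 was higher at day 6 without overlap. Id2 (chr12:25093799-25096092) had 60.6 and 66.8 FPKM at day 6, against 28.7 and 40.8 FPKM at day 4, a mean 1.83-fold higher at day 6 (log2 difference 0.87 ± 0.46, SE; limma, adjusted p = 0.422).

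Id1 (chr2:152736251-152737410), the classical direct target of BMP SMADs, had 66.2 and 63.2 FPKM at day 6. At day 4 it had 61.4 FPKM in replicate 1 and 179 FPKM in replicate 2. Replicate 1 of day 4 is thus close to both day 6 libraries, and replicate 2 stands above all others. The log2 difference was -0.69 ± 0.67 (SE; limma, adjusted p = 0.639). Without day 4 replicate 1 it was -1.45, and without day 4 replicate 2 it was 0.075, each with a single day 4 library.

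Id3 (chr4:136143822-136145392) spread the most of the 10. It had 133 and 115 FPKM at day 6, against 30.7 and 247 FPKM in day 4 replicates 1 and 2, which differ by 8.04-fold. Both day 6 values lie between the 2 day 4 values. The log2 difference was 0.49 ± 1.10 (SE; limma, adjusted p = 0.843). It was -0.99 without day 4 replicate 1 and 1.98 without day 4 replicate 2, each with a single day 4 library.

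Id1 and Id3 have short transcripts, of 934 and 953 bases. In 3 of the 4 libraries the deposited value of each lay above the upper bound of its own deposited interval. That happened to 27.8 to 39.0% of rows shorter than 1000 bases with more than 5 FPKM, counting values on either side of the interval, and to 0.5 to 1.0% of rows of at least 2000 bases. The levels of these 2 genes are therefore less certain than those of the longer members.

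The Msx genes encode homeobox repressors of limb, craniofacial and neural crest development. Msx1 (chr5:37820491-37824585) had 29.8 and 50.3 FPKM at day 6, against 30.0 and 159 FPKM at day 4. Msx2 (chr13:53466881-53472780) had 55.2 and 68.0 FPKM at day 6, against 17.6 and 75.0 FPKM at day 4. For each gene the days overlap, and the 2 day 4 libraries differ by 5.29-fold for Msx1 and 4.25-fold for Msx2. The log2 differences were -0.82 ± 0.94 for Msx1 (SE; limma, adjusted p = 0.688) and 0.72 ± 0.81 for Msx2 (SE; limma, adjusted p = 0.683). Without day 4 replicate 1 they were -2.00 and -0.29, and without day 4 replicate 2 they were 0.36 and 1.74. Each of these fits has a single day 4 library.

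Bambi encodes a pseudoreceptor without a kinase domain that dampens BMP and TGF-β signalling. It had 6.18 and 6.03 FPKM at day 6, against 1.32 and 2.88 FPKM at day 4, and the days do not overlap. Its mean was 2.91-fold higher at day 6 (log2 difference 1.24 ± 0.46, SE; limma, adjusted p = 0.328, unadjusted p = 0.0502). As deposited, Bambi stood at 0.106 and 0.108 of the Bmp4 level at day 6 and at 0.117 and 0.149 of it at day 4. On log2(FPKM + 1) the ratio was -3.04 and -3.01 at day 6, against -2.40 and -2.39 at day 4. After the GC correction described below, the days overlapped on that scale. The corrected ratio was -3.02 and -2.98 at day 6, against -3.05 and -1.79 at day 4.

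In all, 6 of the 10 members were higher at day 6 without overlap, among them 4 of 4 ligands and 2 of 6 targets, and 0 were lower. The same was seen in 41.6% of all genes tested for higher and in 11.5% for lower. In limma, 0 of the 10 and 0% of all genes tested passed the adjusted threshold of 0.05. Bmp4 and Bmp5 had an unadjusted p under 0.05, as did 15.3% of all genes tested. With 2 libraries against 2, an exact two-sided permutation test cannot give a p below 0.333, and it gave that value for each of the 6 members that do not overlap. The members' median log2 difference was 0.81, beside 0.51 for all genes tested, and the ligands' was 1.35. The single ligand differences were 0.79 for Bmp7, 0.84 for Bmp2, 1.87 for Bmp4 and 2.16 for Bmp5. These counts and medians include Bmp5, whose difference is partly fixed by the filter.

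The member count depended on how the libraries were brought to a common scale. After centring on the library median, 3 members were higher without overlap (Bmp4, Bmp5 and Bambi) and 1 lower (Id1), where 20.3% of all genes were higher and 26.4% lower. After quantile normalization they were Bmp4, Bmp5 and Id2 higher and Id1 lower, where 23.1% of all genes were higher and 25% lower. After correction for GC content, 2 were higher (Bmp4 and Bmp5) and 2 lower (Id1 and Msx1), where 27.3% of all genes were higher and 27.4% lower. Bmp4 and Bmp5 were thus higher without overlap at each of these scalings, with log2 differences from 1.22 to 1.62 for Bmp4 and from 1.40 to 1.84 for Bmp5. For Bmp5 the filter partly fixes that direction, and the GC correction acted on day 4 values near 0. Without day 4 replicate 1, limma called 5 members higher (Bmp4, Bmp5, Bmp7, Id2 and Bambi) and 3 lower (Id1, Id3 and Msx1), where it called 49.9% of all genes higher and 17% lower. Without day 4 replicate 2 it called 7 members higher (Bmp2, Bmp4, Bmp5, Id2, Id3, Msx2 and Bambi) and 0 lower, where it called 36.2% of all genes higher and 15.7% lower. Such a fit gives the single day 4 library the spread of the day 6 pair.

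**Figure D2:**
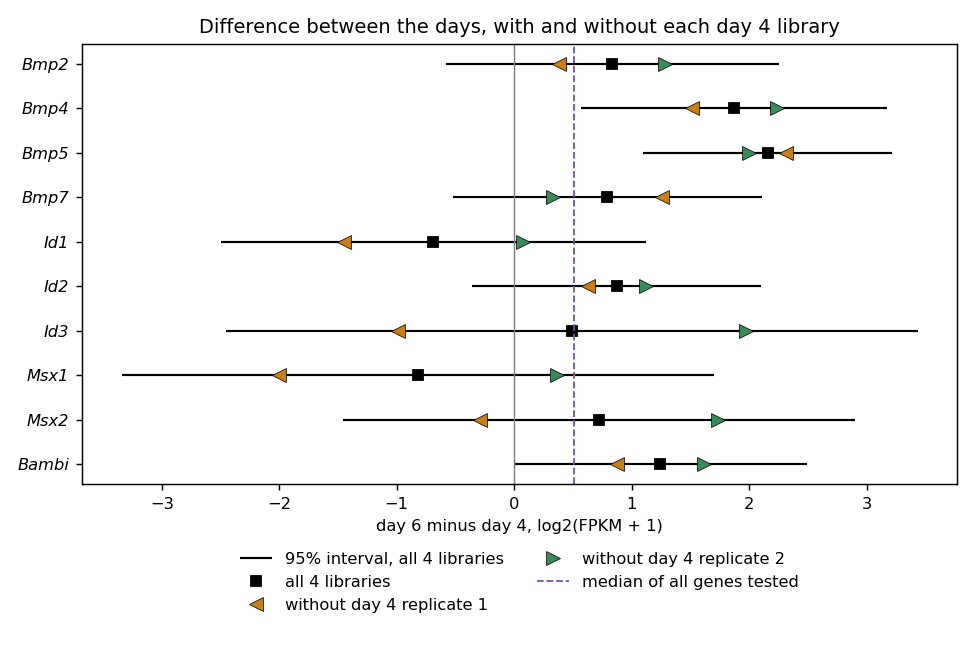
Day 6 minus day 4 on log2(FPKM + 1) for each member: squares with lines are the estimate and its 95% interval from all 4 libraries, and triangles leave out 1 day 4 library. For Id1, Id3, Msx1 and Msx2 the 2 triangles fall on opposite sides of 0, and for the ligands, Id2 and Bambi both lie above it; the dashed line is the median of all genes tested, 0.51.

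The 2 day 6 libraries differed much less from each other than the 2 day 4 libraries did. The median absolute log2 gap between replicates was 0.19 at day 6 and 1.07 at day 4 over all genes tested, and 0.17 at day 6 and 0.91 at day 4 over the 10 members. At day 6, genes of 42 to 44% GC had a median of -0.047 for replicate 2 minus replicate 1, and genes of 58 to 60% GC a median of -0.094. At day 4 the same medians were -1.47 and 1.21, so there the gap moved with the GC content of the transcript.

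Of the 10 members, 8 were higher in day 4 replicate 2 than in replicate 1, and Bmp5 and Bmp7 were lower. Id3 (55.6% GC) lay 2.97 log2 units higher in replicate 2, where genes within 1 percentage point of its GC had a median gap of 0.47, and 99.0% of all genes tested had a smaller signed gap. Msx2 (48.5% GC) lay 2.03 higher, where genes of like GC had a median of -0.89. Msx1 (58.2% GC) lay 2.36 higher against a median of 1.07, and Id1 (55.2% GC) 1.53 higher against 0.36. Id2 and Bambi, with 42.4 and 44.0% GC, lay 0.49 and 0.74 higher, where genes of like GC had medians of -1.54 and -1.34. After the GC correction the gap was 2.56 for Id3, 1.37 for Msx1 and 3.02 for Msx2, and it had grown to 2.10 for Id2 and 2.21 for Bambi. Bmp5 (40.5% GC) lay 0.32 lower in replicate 2, where genes of like GC had a median of -1.79. The correction turned its gap to 1.40, although its deposited value in replicate 2 is 0. What else differed between the 2 day 4 cultures or libraries was not tested.

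**Figure D3:**
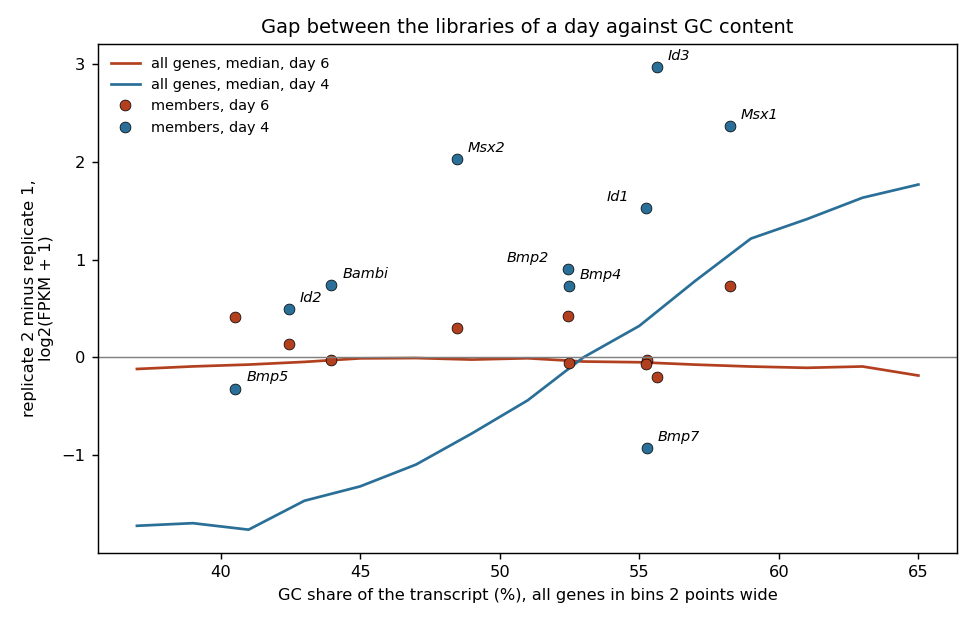
Gap between the 2 libraries of a day (replicate 2 minus replicate 1, log2(FPKM + 1)) against the GC content of the transcript in percent; lines are medians of all genes tested in bins 2 points wide and dots are the 10 members. The day 6 line stays near 0 while the day 4 line climbs with GC, and Id3, Msx1, Msx2 and Id1 have the widest day 4 gaps of the members.

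Ratios between members of 1 library are free of its overall scaling. Msx2 over Msx1 was 1.85 and 1.35 at day 6, against 0.589 and 0.473 at day 4. As deposited, Msx2 was thus the more abundant of the pair at day 6 and Msx1 at day 4, which after the GC correction held for 1 of the 2 day 4 libraries. The corrected log2 ratio was 0.67 and 0.18 at day 6, against -1.50 and 0.15 at day 4. The days still did not overlap, but the day 4 libraries were then far apart, and in day 4 replicate 2 Msx2 was the higher. Id3 over Id1 was 2.01 and 1.82 at day 6 and 0.5001 and 1.38 at day 4.

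The level of Id1 and Id3 relative to Bmp4 was lower at day 6. Id1 over Bmp4 was 1.14 and 1.13 at day 6, against 5.44 and 9.24 at day 4, and the days did not overlap with or without the GC correction. Id3 over Bmp4 was 2.28 and 2.07 at day 6, against 2.72 and 12.8 at day 4. For each of these ratios an exact two-sided permutation test gave p = 0.333, the smallest that 4 libraries allow.

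**Figure D4:**
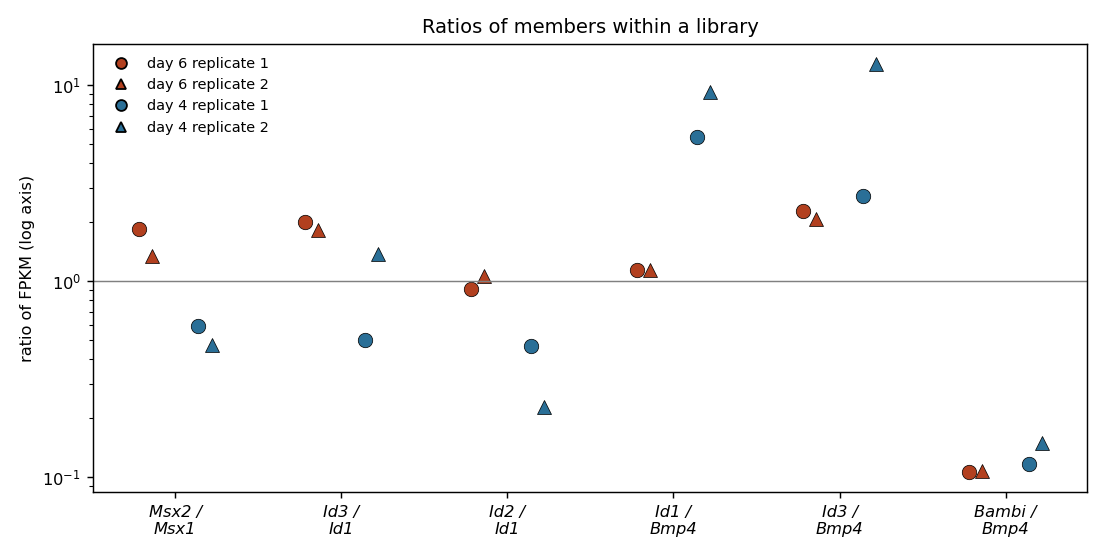
Ratio of the FPKM of 2 members within each library, on a log axis, with day 6 left of day 4 for each pair; circles are replicate 1 and triangles replicate 2. As deposited, Msx2 over Msx1 lies above 1 at day 6 and below 1 at day 4 (after the GC correction it is above 1 in day 4 replicate 2), and Id1 over Bmp4 lies near 1 at day 6 and above 5 at day 4.

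By mean level at day 6, the order was Id3, Id1, Id2, Msx2, Bmp4, Msx1, Bmp2, Bambi, Bmp5 and Bmp7. Id1 overlapped Id2, Id2 overlapped Msx2, Msx2 overlapped Bmp4, and Bmp5 overlapped Bmp7, while the other neighbours did not overlap. At day 4 the order was Id3, Id1, Msx1, Msx2, Id2, Bmp4, Bmp2, Bambi, Bmp7 and Bmp5. There the first 4 each overlapped the next, as did Bambi and Bmp7, while the other neighbours did not overlap. In FPKM, which is per length, the 3 Id genes together had 260 and 245 at day 6 and 121 and 466 at day 4.

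The genes whose profile over the 4 libraries was nearest to the highest ligand, Id gene and Msx gene were found by distance on centred log2 values among 11715 genes. Nearest to Bmp4 were Nit1 (distance 0.075), Itgb5 (0.10) and Neil2 (0.14). Nit1 had 32.1 and 32.1 FPKM at day 6, against 6.38 and 10.7 FPKM at day 4. Nearest to Id3 were Map2k2 (0.037), Llgl2 (0.044) and Gcat (0.075), and nearest to Msx1 were Gm20033 (0.24) and a pair of transcripts without a symbol. Gm20033 was low, with 0.242 and 1.39 FPKM at day 6, against 0.470 and 5.33 FPKM at day 4. The closer transcript of the pair (0.091) was near 0 in replicate 1 of each day. With 4 libraries such a distance describes these values only.

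Among the other 70 pathway genes on the lists, 45 passed the filter. Of these 45, 14 had both day 6 values above both day 4 values and 4 had both below, a pattern that 41.6 and 11.5% of all genes tested showed. None passed limma's adjusted threshold, and 8 of 45 had an unadjusted p under 0.05, as did 15.3% of all genes tested. Their median log2 difference was 0.52, beside 0.51 for all genes tested. After median centring 10 were higher and 12 lower, where 20.3% of all genes were higher and 26.4% lower. Counts without overlap in the lists that follow are as deposited and stand against the same 41.6 and 11.5%. Of the genes counted as higher, Acvrl1, Dand5, Tbx2 and Atoh8 averaged under 1 FPKM at day 4. They passed the filter through their day 6 values, so their direction is partly fixed by it.

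Of the other ligands, Bmp8b, which acts in germ cells and brown fat, had 18.01 and 13.2 FPKM at day 6, against 2.25 and 4.27 FPKM at day 4. Its neighbour and close paralog Bmp8a had 1.96 and 1.57 FPKM at day 6, against 0.798 and 7.19 FPKM at day 4, and reads of the pair may be hard to assign. Their days overlap for Bmp8a and not for Bmp8b. Gdf6, a ligand of joint and eye development, had 1.31 and 0.989 FPKM at day 6, against 0.811 and 1.47 FPKM at day 4. Bmp10 and Bmp15 were listed at 0 in all 4 libraries.

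Of 9 receptor and coreceptor genes tested, 2 were higher without overlap (Acvrl1 and Rgma) and 2 lower (Acvr2b and Eng). Bmpr1a, the main type I receptor for Bmp2 and Bmp4, had 13.5 and 14.0 FPKM at day 6, against 14.5 and 0.706 FPKM at day 4, so a single day 4 library stands apart. Eng (endoglin), a coreceptor of endothelial cells, had 4.87 and 5.41 FPKM at day 6, against 7.35 and 25.9 FPKM at day 4. Rgmb, another coreceptor, had 8.13 and 6.41 FPKM at day 6, against 7.03 and 61.9 FPKM at day 4. The SMAD transducers overlapped between the days in 3 of 3 tested: Smad1 had 14.4 and 13.0 FPKM at day 6, against 13.3 and 24.0 FPKM at day 4. Smad4, the shared partner, had 27.3 and 30.5 FPKM at day 6, against 28.1 and 12.2 FPKM at day 4. Smad5 had 6.39 and 6.22 FPKM at day 6, against 7.70 and 0.333 FPKM at day 4, and again a single day 4 library stands apart. Bmpr1a and Smad5 have 41.3 and 44.5% GC. At day 4, genes of 40 to 42% GC had a median replicate 2 minus replicate 1 gap of -1.76. Genes of 44 to 46% GC had one of -1.32.

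The inhibitory SMADs, which are feedback targets of the pathway, overlapped as Id1, Id3 and the Msx genes did. Smad6 had 13.9 and 18.3 FPKM at day 6, against 2.99 and 19.1 FPKM at day 4. Smad7 had 16.8 and 15.0 FPKM at day 6, against 10.4 and 34.4 FPKM at day 4. In both, day 4 replicate 2 is the highest of the 4 libraries. Smad6 and Smad7 have 60.8 and 56.9% GC. At day 4, genes of 60 to 62% GC had a median replicate 2 minus replicate 1 gap of 1.41. Genes of 56 to 58% GC had one of 0.78. Of the ubiquitin ligases that mark SMADs for degradation, Smurf1 had 15.0 and 11.7 FPKM at day 6, against 7.53 and 12.2 FPKM at day 4, and Smurf2 was higher at day 6 without overlap. Of the secreted antagonists, 7 of 16 passed the filter, and 2 of these were higher without overlap (Fstl1 and Dand5) and 2 lower (Fst and Twsg1). Fst (follistatin), which binds activins and BMPs, had 1.52 and 3.06 FPKM at day 6, against 85.3 and 6.91 FPKM at day 4. Fstl1 had 46.9 and 52.6 FPKM at day 6, against 20.7 and 11.8 FPKM at day 4. Twsg1, a chordin partner, had 13.2 and 13.1 FPKM at day 6, against 13.8 and 17.0 FPKM at day 4. The Fst and Fstl1 differences thus run in opposite directions, and that of Twsg1 is small. Bmp1, a protease that cleaves the antagonist chordin and no BMP ligand despite its name, had 71.2 and 43.6 FPKM at day 6, against 9.12 and 40.1 FPKM at day 4. Its relatives Tll1 and Tll2 did not pass the filter and stayed below 1 FPKM in all 4 libraries.

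The E proteins that Id proteins bind gave 1 gene higher without overlap out of 3. Tcf12 had 16.3 and 17.9 FPKM at day 6, against 10.4 and 3.05 FPKM at day 4. Tcf4 had 6.96 and 6.14 FPKM at day 6, against 7.76 and 2.07 FPKM at day 4, and overlapped. Tcf3 had 57.6 and 55.8 FPKM at day 6, against 17.4 and 113 FPKM at day 4. Of 15 other BMP-responsive genes tested, 6 were higher without overlap (Dlx3, Gata2, Tbx2, Tbx20, Atoh8 and Tfap2c) and 0 lower, a share near that of all genes tested, 41.6%. Their median log2 difference was 0.31, below the 0.51 of all genes tested. Id4, a further Id gene on this list, overlapped. Gata3, Cdx2 and Tbx3, the 3 with the highest mean level, overlapped. Gata3 had 22.4 and 22.2 FPKM at day 6, against 20.4 and 39.9 FPKM at day 4. Cdx2 had 28.7 and 30.9 FPKM at day 6, against 7.87 and 33.0 FPKM at day 4. Tbx3 had 29.3 and 29.2 FPKM at day 6, against 11.9 and 45.04 FPKM at day 4. In all 3, day 4 replicate 2 was the highest library. Gata3, Cdx2 and Tbx3 have 49.7, 57.5 and 53.0% GC. At day 4, genes of 48 to 50% GC had a median replicate 2 minus replicate 1 gap of -0.78. Those of 56 to 58% GC had 0.78, and those of 52 to 54% GC 0.

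**Figure D5:**
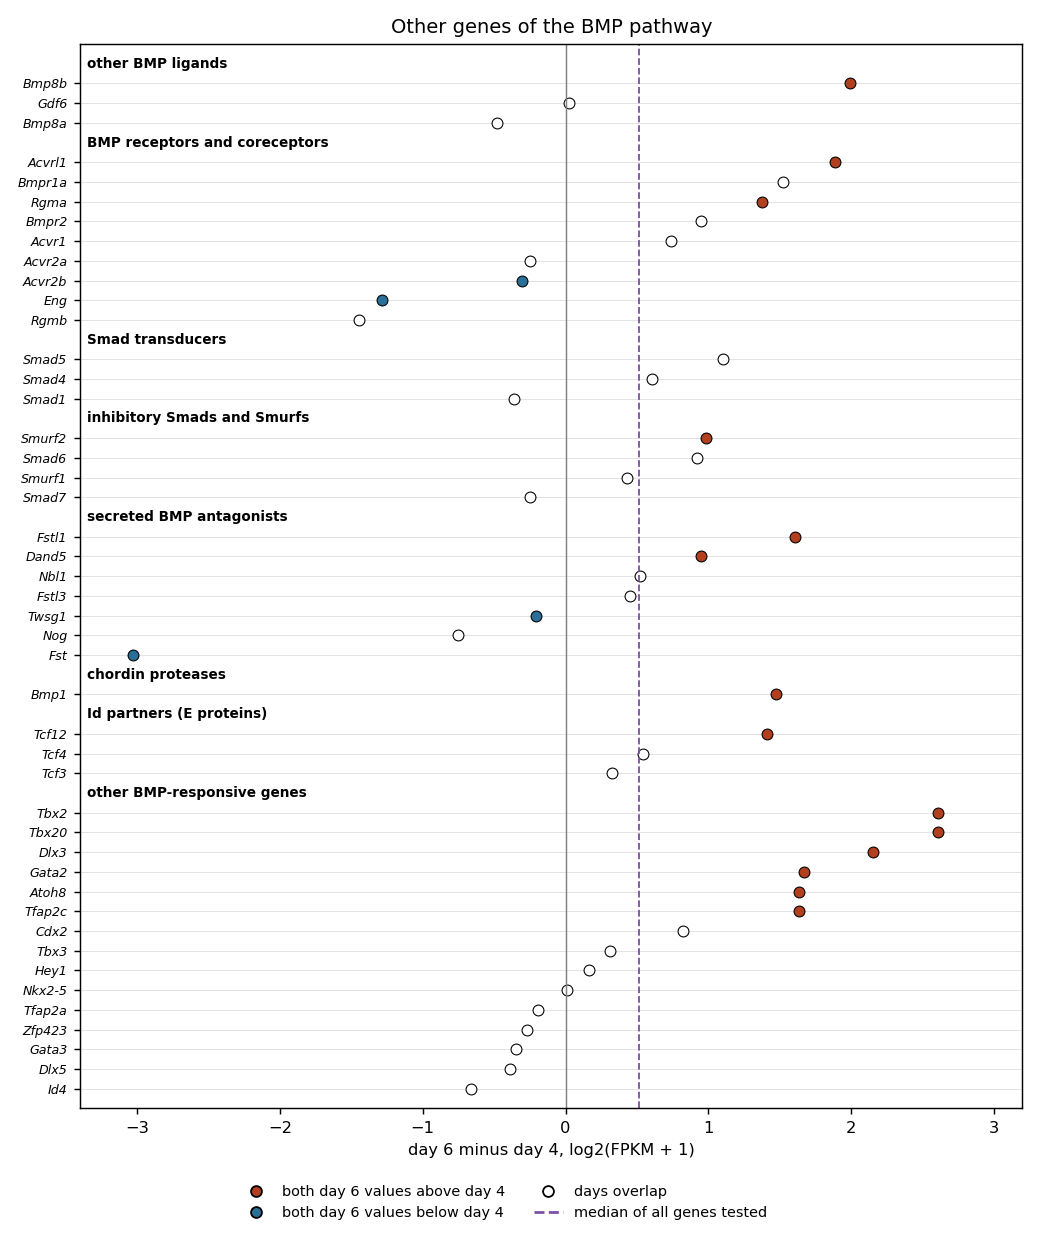
Day 6 minus day 4 on log2(FPKM + 1) for the 45 other pathway genes that passed the filter, grouped by role; filled dots are genes whose days do not overlap, open dots genes whose days overlap, and the dashed line is the median of all genes tested. Of the 45, 14 are filled as higher and 4 as lower at day 6, and Fst lies farthest to the left.

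Summed markers of several other cell types were also higher at day 6. Their counts without overlap are as deposited, where 41.6% of all genes tested were higher, and 20.3% after median centring. Cardiac and lateral mesoderm markers (8 genes) summed to 219 and 399 FPKM at day 6, against 82.8 and 51.9 FPKM at day 4, and 3 of 5 tested were higher and 1 lower (Actc1) without overlap. Most of that sum was Hand1, at 181 and 329 FPKM at day 6, against 73.8 and 36.6 FPKM at day 4. Extraembryonic endoderm markers (8 genes) summed to 55.8 and 87.3 FPKM at day 6, against 15.9 and 15.4 FPKM at day 4, with 5 of 6 tested higher. Ttr, Afp and Apoa1 of that list were at 0 in both day 4 libraries, and Afp was at 0 at day 6 too. Trophoblast markers (6 genes) summed to 250 and 266 FPKM at day 6, against 43.6 and 110 FPKM at day 4, with 4 of 5 tested higher, and Elf5 and Plac1 were at 0 in both day 4 libraries. Elf5 had only 0.153 and 0.224 FPKM at day 6, below the filter, and Cdx2 overlapped. The largest part of the sum at day 6 was Krt7, at 146 and 129 FPKM, against 25.7 and 58.1 FPKM at day 4. Fibroblast markers (7 genes) summed to 142 and 271 FPKM at day 6, against 9.84 and 8.39 FPKM at day 4, with 4 of 5 tested higher, and Postn, Lum and Dcn were at 0 in both day 4 libraries. Blood and endothelial markers (8 genes) summed to 191 and 739 FPKM at day 6, against 5.90 and 6.34 FPKM at day 4, with 6 of 7 tested higher, and Hba-x, Hbb-bh1 and Gata1 were at 0 in both day 4 libraries. Of the genes counted as higher, Sox17, Ttr and Plac1 averaged under 1 FPKM at day 4. So did Col1a2, Col3a1, Postn, Hba-x, Hbb-bh1, Tal1, Pecam1 and Cdh5. These genes passed the filter through their day 6 values, so their direction is partly fixed by it. The part of these cell types in the ligand levels was not tested.

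Summed markers of earlier states moved the other way. As deposited, 11.5% of all genes tested were lower without overlap, and 26.4% after median centring. Pluripotency markers (6 genes) summed to 199 and 192 FPKM at day 6, against 787 and 879 FPKM at day 4, with 4 of 6 lower without overlap and none at 0. Pou5f1 (Oct4), which defines the stem cell state, had 54.9 and 42.0 FPKM at day 6, against 368 and 376 FPKM at day 4. Dppa5a overlapped, with 61.8 and 77.6 FPKM at day 6, against 71.7 and 1.66 FPKM at day 4. Tdgf1 overlapped too, with 11.7 and 9.49 FPKM at day 6, against 140 and 3.47 FPKM at day 4. The close day 4 sums hide such spread. In day 4 replicates 1 and 2, Nanog (45.8% GC) had 83.8 and 13.7 FPKM and Utf1 (63.5% GC) 73.1 and 392 FPKM. Dppa5a and Tdgf1 have 49.4 and 45.3% GC. Primitive streak markers (6 genes) summed to 22.8 and 22.6 FPKM at day 6, against 256 and 684 FPKM at day 4, and 6 of 6 were lower. Of these, Gsc and Mesp1 averaged under 1 FPKM at day 6 and passed the filter through their day 4 values. The day 4 library with more Id1, Id3, Msx1 and Msx2 RNA, replicate 2, thus also had the larger sum of streak markers. The gap between the day 4 libraries moved with GC content, as given above. In day 4 replicates 1 and 2, T (52.2% GC) had 131 and 252 FPKM and Mixl1 (48.5% GC) 54.2 and 190 FPKM. Evx1 (61.2% GC) had 12.1 and 133 FPKM, and Mesp1 (63.1% GC) 3.40 and 46.3 FPKM. Gsc (66.6% GC) had 1.73 and 8.41 FPKM, and Eomes (53.9% GC) 53.4 and 55.0 FPKM. The part of streak cells in the Id and Msx levels was not tested. Neuroectoderm markers (5 genes) summed to 14.9 and 6.14 FPKM at day 6, against 141 and 88.6 FPKM at day 4, nearly all of it from Nes, the 1 gene tested, which was lower without overlap, and Hes5 was at 0 in all 4 libraries. Surface ectoderm markers (5 genes) summed to 3579 and 2172 FPKM at day 6, against 842 and 1787 FPKM at day 4, nearly all from the simple keratins Krt8 and Krt18, with 1 of 3 tested higher and 1 lower. Krt5 was at 0 throughout and Trp63 in both day 4 libraries.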

How the data were processed

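Per the labels' protocols, poly(A) RNA was made into stranded TruSeq libraries. The submitters' processing notes name CASAVA, TopHat2 2.0.11 and mm10. The quantifier and its use of strand were not given in the sources used here. The authors deposited FPKM per transcript with a lower and an upper bound, and a coverage signal per the file headers, unscaled, used here only to describe depth. Symbols were assigned by transcript ID from RefSeq GRCm38.p6 and GENCODE M21 (95.5% of 35656 rows), and FPKM were summed per symbol. Day 6 was compared with day 4 by limma 3.58.1 in R 4.3.3 on log2(FPKM + 1), with a mean-variance trend, no replicate block, Benjamini-Hochberg adjustment over the 11716 genes that averaged 1 FPKM or more, and a threshold of 0.05. The step was tested on simulated data. "Without overlap" means both day 6 values on 1 side of both day 4 values. For the GC correction, a loess fit on transcript GC was subtracted per library. Depth, estimated from interval widths, was 3660000 to 6500000 fragments; those intervals cover counting error only. Members and lists were chosen with earlier results of these data known. Named were all members and, in each pathway list, the 3 genes of highest mean FPKM, with those without overlap listed by name after their values were seen, as were Id4, Bmp10, Bmp15 and the single markers. Alternatives were other pseudocounts, filters and scalings, the highest row per symbol, a replicate block, no trend, and leaving out each library. The planned protein comparison was not made, as no protein sequences were used here.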

Additional observations from a re-analysis of the deposited data

How the results depend on the processing

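Over 15 alternatives, the log2 differences of Bmp4, Bmp5, Bmp2, Bmp7, Id2 and Bambi stayed above 0 wherever the gene passed the filter, from 1.22 to 2.24 for Bmp4 and from 1.40 to 4.45 for Bmp5. With all 4 libraries kept, 0 of 11716 genes were called, and 67 with the replicate block, which called 0 members. Replicate numbers pair no samples in the labels, and the deviations of same-numbered libraries had a correlation across genes of -0.090. Leaving out 1 library gave 0 to 7837 genes and 0 to 8 members called, 6 to 9 members higher and 0 to 4 lower without overlap, and a member median of 0.51 to 1.45. In the other pathway genes it gave 0 to 30 called, 16 to 28 higher and 5 to 21 lower without overlap. It turned the sign for Id1 (-1.45 to 0.075), Id3 (-0.99 to 1.98), Msx1 (-2.00 to 0.36) and Msx2 (-0.29 to 1.74). Members higher without overlap numbered 3 with a filter of 5 FPKM (fewer genes tested), 3 after median centring, 3 after quantile normalization, and 2 after the GC correction and after the replicate block with the GC correction; lower were 1 after median centring, 1 after quantile normalization and 2 in both GC fits. The member median was 0.19 after median centring and 0.24 in both GC fits. Of the 45 other pathway genes tested, 9 were higher after quantile normalization, where 23.1% of all genes were. Lower were 12 after median centring, 12 after quantile normalization and 10 in both GC fits. The shares of all genes that were lower are 26.4, 25 and 27.4%. Id3 was -0.14 after median centring and Msx2 -0.0010 in both GC fits. The cause of these changes was not tested. Depth limits what can be said of Bmp5 at day 4, where 1 library lists it at 0.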
